A study of Mus musculus with 3 samples.

Results

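Pdcd1, Ctla4, Lag3, Tigit, Havcr2, Tnfrsf9, Icos and Tox are 8 genes of the receptors that restrain or sustain an activated T cell and of the program that follows long stimulation. They were taken as a named list, not chosen by their values, and all 8 of 8 were found in each of the 3 deposited RNA matrices, which together hold 19039 genes. They were read in the T cell and NK cell clusters and gates (named for surface proteins by the authors) of the naive brain and the blood, and in the cells with at least 1 UMI (a captured RNA molecule) of Cd3e, a subunit of the T cell receptor complex, in the brain with metastases. Such Cd3e-expressing cells numbered 1050 of 5933 for the brain with metastases, 707 of 2653 for the naive brain and 245 of 2924 for the blood.

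A T cell that meets its antigen puts both brakes and boosters on its surface. Pdcd1 encodes PD-1, which binds PD-L1 and PD-L2 and dampens receptor signalling, and Ctla4 encodes the receptor that competes with CD28 for CD80 and CD86 and is held at high level by regulatory T cells. Lag3 binds MHC class II, Tigit binds the poliovirus receptor, and Havcr2 encodes TIM-3. All of these are inhibitory receptors that accumulate on T cells exposed to antigen for long. Icos and Tnfrsf9 (4-1BB) are costimulatory receptors induced by activation, and Tox is a DNA-binding factor of the exhausted state that is also needed for the development of NK cells and of some T cells.

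The study used CITE-seq (transcripts and antibody barcodes counted in each droplet) to ask how microglia bear on the immune cells around brain metastases. Female C57Bl/6 mice aged 2 to 3 months were of 1 of 2 genotypes, Cx3cr1CreERT-ROSA-iDTR in the depleted arm and Cx3cr1CreERT in the control arm. Cx3cr1CreERT is a tamoxifen-switched recombinase driven by a gene of microglia and monocytes, and ROSA-iDTR makes recombined cells sensitive to diphtheria toxin. Both arms received tamoxifen, a month of rest and then the toxin. Metastases were started by injecting E0771, a mouse mammary tumour line, into the carotid artery about 2 weeks before sampling, and the blood came from mice with metastases. Each sample was 1 brain hemisphere, its immune cells enriched by Percoll centrifugation, or peripheral blood, and the submitters state that microglia remain in the depleted samples. The 8 samples carried a hashing antibody each, were stained with 35 surface antibodies and were read as 1 RNA library.

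The hashed samples labelled depleted and control numbered 1 per arm and tissue, so that no comparison had a replicate, no test was possible, and the differences below are descriptions of these samples. The 5933 cells of the brain with metastases entered as 1 pooled sample, since its arms were not analysed here. Levels are given as CP10k, the UMIs of a gene per 10000 UMIs summed over the cells of a class, after the authors' correction for depth. Shares of cells carry exact Clopper-Pearson 95% intervals, which cover counting error only. Where no cell of a class had a UMI, the limit given is not that interval's upper bound but the share that 3 counts would make of its cells. A gene was counted as measured in a comparison at 0.5 CP10k or more on at least 1 side, and as past 2 fold by the log2 ratio with 0.1 CP10k added to each side. Corrected UMIs per cell had medians of 13647 for the brain with metastases, 9613 for the naive brain and 5117.5 for the blood, so shares were also computed after thinning every cell to 2000 UMIs.

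Several facts of the pool touch the results. Cx3cr1 went against the arm labels: it stood at 4.40 CP10k in the naive brain sample labelled depleted, against 0.768 CP10k in the sample labelled control, and at 2.26 CP10k in the blood sample labelled depleted, against 1.08 CP10k in that labelled control. The arms are therefore called by their labels throughout. Droplet barcodes recurred between matrices, 518 between the brain with metastases and the naive brain, 578 between the brain with metastases and the blood, 339 between the naive brain and the blood, and 84 in all 3. Of the 160 barcodes shared by the 2 brain matrices that had Cd3e in either, 146 had it in both. Shared barcodes made up 21.9% of the Cd3e-expressing cells of the brain with metastases, 28.6% of those of the naive brain and 55.1% of those of the blood, and results that rest on them are given with and without them.

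The cell labels were checked against their markers. The naive brain's CD3+ gate had Cd3e in 100% of 275 cells and its NK1.1+ gate had Klrb1c, the gene of NK1.1, in 100% of 155 cells, with Klrb1c in 0 of the 275. Unlike the blood's, the naive brain's gates were labelled CD3+NK- and NK+CD3-, each leaving out the other, so the 0 of 275 is no separate check. Its CD8+ gate had Cd8a in 98.7% of cells and Cd4 in 0 of 154, and its CD4+ gate had Cd4 in 76.9% and Cd8a in 0 of 39, so these gates coincide nearly with the RNA, and how they were drawn is not given in the sources used here. In the blood the gates did not follow the RNA: 42.9% of the 329 cells of the CD3+ gate had Cd3e, and of the 198 cells of the NK1.1+ gate 5.05% had Klrb1c and 4.55% had Ncr1, while 85.9% of that gate's barcodes recurred in another matrix. Of the Cd3e-expressing cells in the brain with metastases, 92.3% had Cd3d, 81.8% had Trac, 49.1% had Cd8a, 19.4% had Cd4 and 8.38% had Foxp3. Macrophage transcripts were there too, with C1qa in 66.8% and Lyz2 in 87.0%, and 130 of the 1050 cells held fewer than 2 of 5 macrophage genes. No doublet caller was run.

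The plot of levels by class of cells sets out where the genes were found. In the brain with metastases the cells were clustered anew into 30 clusters, of which clusters 17 and 5 were T cell-like and cluster 6 was NK-like by fixed marker lists. Clusters 10 and 21 held T cell genes but stayed unnamed, cluster 10 being led by Il17a, Trdc and Tcrg-C1 and cluster 21 by Klra1 and Xcl1. The clustering used these genes among others, and Ctla4 is among the 10 leading genes of cluster 17, so levels by cluster are a description.

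**Figure D1:**
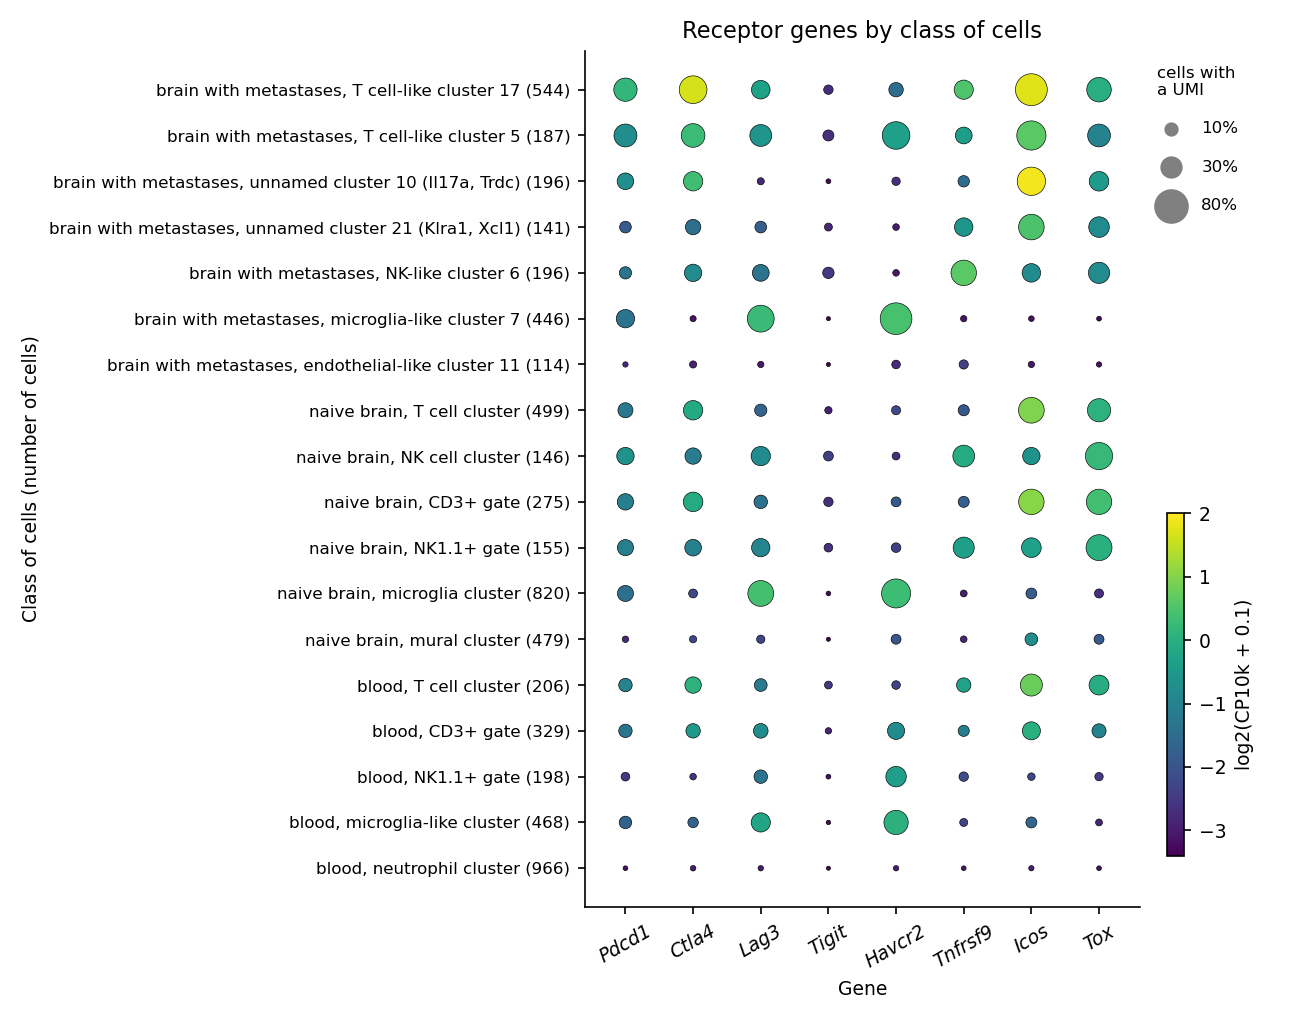
Level of each gene (columns) in classes of cells of the 3 tissues (rows, with the number of cells): colour is log2 of CP10k + 0.1 and dot area is the share of cells with a UMI. Icos and Ctla4 are brightest in the T cell-like classes, Lag3 and Havcr2 in the microglia classes, and Tigit is dim in every class shown.

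Among the inhibitory receptors, Ctla4 was found mainly in T cell classes. It reached 3.04 CP10k with a UMI in 57.5% of the 544 cells of T cell-like cluster 17, 1.16 CP10k in cluster 10 and 1.12 CP10k in cluster 5, against 0.824 CP10k in the naive brain's T cell cluster of 499 cells and 0.957 CP10k in the blood's T cell cluster of 206. Microglia-like cells of the brain with metastases had 0.0115 CP10k and a UMI in 1.57% of cells.

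Pdcd1 too was highest in cluster 17. It stood at 1.01 CP10k and 40.4% of cells in cluster 17, 0.494 CP10k in cluster 5, 0.322 CP10k and 16.0% in the naive brain's T cell cluster, and 0.411 CP10k and 12.6% in that of the blood. It was also seen outside T cells: NK cells of the naive brain had 0.522 CP10k, and microglia had 0.292 CP10k with a UMI in 24.7% of cells in the brain with metastases and 0.271 CP10k with 18.5% in the naive brain. The naive brain's microglia cluster held 10 of 10 microglia markers but was led by Igkc, Ighm, Jchain and Prss34, and 11.0% of its cells had Cd3e. Its levels of Pdcd1, and of Lag3 and Havcr2 below, are therefore those of a mixed cluster.

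Lag3 and Havcr2 were higher in microglia than in the T cell clusters of the same tissue. Lag3 was found in 54.0% of the microglia-like cells of the brain with metastases, in 49.9% of microglia of the naive brain (1.22 CP10k) and in 26.9% of the blood's microglia-like cluster (0.754 CP10k). In T cells it was at 0.696 CP10k in cluster 17 and 0.213 CP10k in the naive brain's T cell cluster. A small dendritic-like cluster of 28 cells, led by Ly6d and Cox6a2, had Lag3 at 1.80 CP10k and in 89.3% of cells. Havcr2 gave 1.24 CP10k and 75.8% in microglia-like cells of the brain with metastases and 1.13 CP10k and 63.4% in microglia of the naive brain. In T cells Havcr2 was at 0.254 CP10k in cluster 17 and 0.118 CP10k in the naive brain's T cell cluster. It was higher, at 0.678 CP10k and 57.2% of cells, in T cell-like cluster 5, which also expressed 6 of the 10 monocyte or macrophage markers at 2 fold or more over the other cells. What macrophage RNA or doublets add to the Lag3 and Havcr2 of Cd3e-expressing cells was not tested.

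Tigit was near the floor in every cluster and gate of T and NK cells. NK cells of the naive brain had 0.0908 CP10k with a UMI in 6.16% of cells, and its CD4+ and CD8+ gates had 0.0846 CP10k with 7.69% and 0.0765 CP10k with 7.14%. T cell-like cluster 17 had 0.0536 CP10k and 5.51%. No microglia-like cell of 446 in the brain with metastases had a Tigit UMI, which allows a share of up to 0.673%. Tigit was measured in none of the 8 comparisons below, so no ratio of it is given.

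The costimulatory receptors divided between T and NK cells. Icos was a T cell gene in each tissue, at 3.25 CP10k and 76.7% of cells in cluster 17 and 3.66 CP10k and 60.2% in the Il17a-led cluster 10, against 1.83 CP10k and 49.5% in the naive brain's T cell cluster and 1.60 CP10k and 35.9% in the blood's. NK cells had less, 0.468 CP10k in the brain with metastases and 0.537 CP10k in the naive brain. Among the clusters plotted for each brain, Tnfrsf9 was instead highest in NK cells: NK-like cluster 6 had 1.43 CP10k and a UMI in 48.5% of 196 cells, and the naive brain's NK cluster had 0.832 CP10k and 34.9% of 146 cells. In T cells Tnfrsf9 was at 1.30 CP10k and 27.0% in cluster 17, 0.160 CP10k and 8.22% in the naive brain and 0.724 CP10k and 14.6% in the blood. Tnfrsf9 also appeared in a tumour or epithelial-like cluster of the brain with metastases, led by Sox9 and carrying Krt8, at 0.582 CP10k and in 44.2% of 342 cells. Pdcd1, Havcr2, Icos and Tox had no UMI in those cells, which allows a share of up to 0.877% each. The naive brain matrix held a tumour or epithelial-like cluster as well, with Tnfrsf9 at 0.362 CP10k and in 30.6% of 111 cells. So did the blood, with Tnfrsf9 at 0.237 CP10k and in 15% of 180 cells.

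Tox was shared by T and NK cells. NK cells of the naive brain had 1.07 CP10k with a UMI in 55.5% of cells and its T cells 0.949 CP10k with 39.9%. The CD8+ gate of the naive brain had the highest Tox of all its gates, 1.47 CP10k and 55.2%. In the brain with metastases cluster 17 had 0.897 CP10k and 44.9% and NK-like cluster 6 had 0.468 CP10k and 33.2%, and the blood's T cells had 0.876 CP10k and 29.1%. Tox in T cells of the 3 tissues thus lay within 0.876 to 0.949 CP10k in these clusters, while T cell-like cluster 5 had 0.408 CP10k.

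Cell types that should lack these genes gave the background of stray RNA. In 114 endothelial-like cells of the brain with metastases (median 12537 corrected UMIs, against 12962.5 in cluster 17) the shares ran from 0 of 114 for Tigit, which allows up to 2.63%, to 5.26% for Tnfrsf9. They were 0.877% for Pdcd1, 2.63% for Ctla4 and 1.75% for Icos. Of these cells 5.26% had Cd3e, so they are no measure of stray RNA alone. In endothelial-like cluster 27 of 232 cells 2.59% had Cd3e, and the shares ran from 0 for Tigit to 3.45% for Lag3. The naive brain had no endothelial-like cluster of either size. Its 44 endothelial-like cells, none with Cd3e, had medians of 9689 corrected and 9746.5 raw UMIs, against 8938 and 6534 in the T cell cluster. They had no UMI of Havcr2, Tnfrsf9, Icos, Tox or Tigit, which allows a share of up to 6.82% each. They had Pdcd1 in 2.27%, Lag3 in 4.55% and Ctla4 in 6.82%. Cluster 2 of 479 cells, which held 6 of 7 mural and 7 of 9 endothelial markers, had Havcr2 and Tox in 6.26% and Icos in 11.1%, but 7.31% of its cells had Cd3e, so it is no measure of stray RNA alone either. Havcr2 was found in 5.01% of the naive brain's T cells, within the limit that the endothelial-like cells set. In 966 blood neutrophils no gene passed 1.04% of cells. Their medians were 4500 corrected and 3016 raw UMIs, against 5695.5 and 7573 in the blood's T cells. By raw depth the neutrophils were shallower, so their shares can understate the stray RNA of T cells.

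The gates split the T cells of the naive brain by kind. In the naive brain's CD4+ gate of 39 cells Ctla4 stood at 2.51 CP10k and 56.4% of cells, against 0.654 CP10k and 24.7% in the CD8+ gate of 154 cells. Icos stood at 3.89 CP10k and 64.1% in the CD4+ gate, against 1.29 CP10k and 42.9% in the CD8+ gate. Pdcd1 was at 0.254 CP10k in the CD4+ gate and 0.494 CP10k in the CD8+ gate, but the split by RNA ran the other way, with 0.513 CP10k in 78 Cd3e-expressing cells with Cd4 and no Cd8a and 0.405 CP10k in 374 with Cd8a and no Cd4 (log2 ratio 0.28). Havcr2 had no UMI in the 39 CD4+ cells, which allows up to 7.69%, and 0.278 CP10k in the CD8+ cells, while by RNA it was found in 14.1% of the Cd4 cells and 16.0% of the Cd8a cells. The 82 cells positive for CD3 but for neither CD4 nor CD8 had Icos at 2.28 CP10k and the lowest Pdcd1 of the 3 gates, 0.188 CP10k. In the blood's NK1.1+ gate, with its few cells with Klrb1c or Ncr1, Havcr2 was at 0.658 CP10k and the other genes at 0.304 CP10k or less.

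In the brain with metastases, Cd3e-expressing cells were set against the other 4883 cells. Of the 6 measured genes, 6 were past 2 fold higher, where 7.18% of the 3498 measured genes were past 2 fold higher and 12% lower. All 6 reached the measured level in Cd3e-expressing cells only, and Havcr2 and Tigit reached it on neither side. The filter thus favoured genes higher in Cd3e-expressing cells, and the count is a description alone. Icos stood at 2.47 CP10k in Cd3e-expressing cells and 0.107 CP10k in the rest, a log2 ratio of 3.64. Ctla4 stood at 1.88 CP10k in Cd3e-expressing cells and 0.0802 CP10k in the rest (3.46), and Tox at 0.658 CP10k in Cd3e-expressing cells and 0.0394 CP10k in the rest (2.44). Pdcd1 stood at 0.705 CP10k in Cd3e-expressing cells and 0.0634 CP10k in the rest (2.30). These 4 genes thus had ratios above 2 on the log2 scale. Tnfrsf9, which tumour-like cells also held, was at 0.926 CP10k in Cd3e-expressing cells and 0.173 CP10k in the rest (1.91). Lag3, which microglia also held, was at 0.539 CP10k in Cd3e-expressing cells and 0.200 CP10k in the rest (1.09). Havcr2 was not above the rest, with a UMI in 22.2% of Cd3e-expressing cells (95% interval 19.7 to 24.8%) and 24.0% of the others (22.8 to 25.3%).

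The same Cd3e rule gave T cells of the brain with metastases to set against those of the naive brain. Ctla4 and Tnfrsf9 were past 2 fold higher in the brain with metastases, Pdcd1, Icos and Lag3 were higher by less, and Tox was not higher. With 0.5 CP10k added in place of 0.1 neither Ctla4 nor Tnfrsf9 was past 2 fold, at log2 ratios of 0.93 and 0.98. With 0.1 CP10k added, 2 of 6 measured genes were past 2 fold higher and 0 lower, where 0.484% of the 2893 measured genes were past 2 fold higher and 0.173% lower. The median log2 ratio of the 6 was 0.78, against 0.04 over all measured genes. Pdcd1, Lag3 and Tnfrsf9 were measured through the brain with metastases alone, so the filter leans that median towards genes higher there. Havcr2, left out by the filter as Tigit was, stood at 0.319 CP10k with metastases and 0.288 CP10k in the naive brain. The matrices were normalized separately by the authors, so levels across them carry that difference too.

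**Figure D2:**
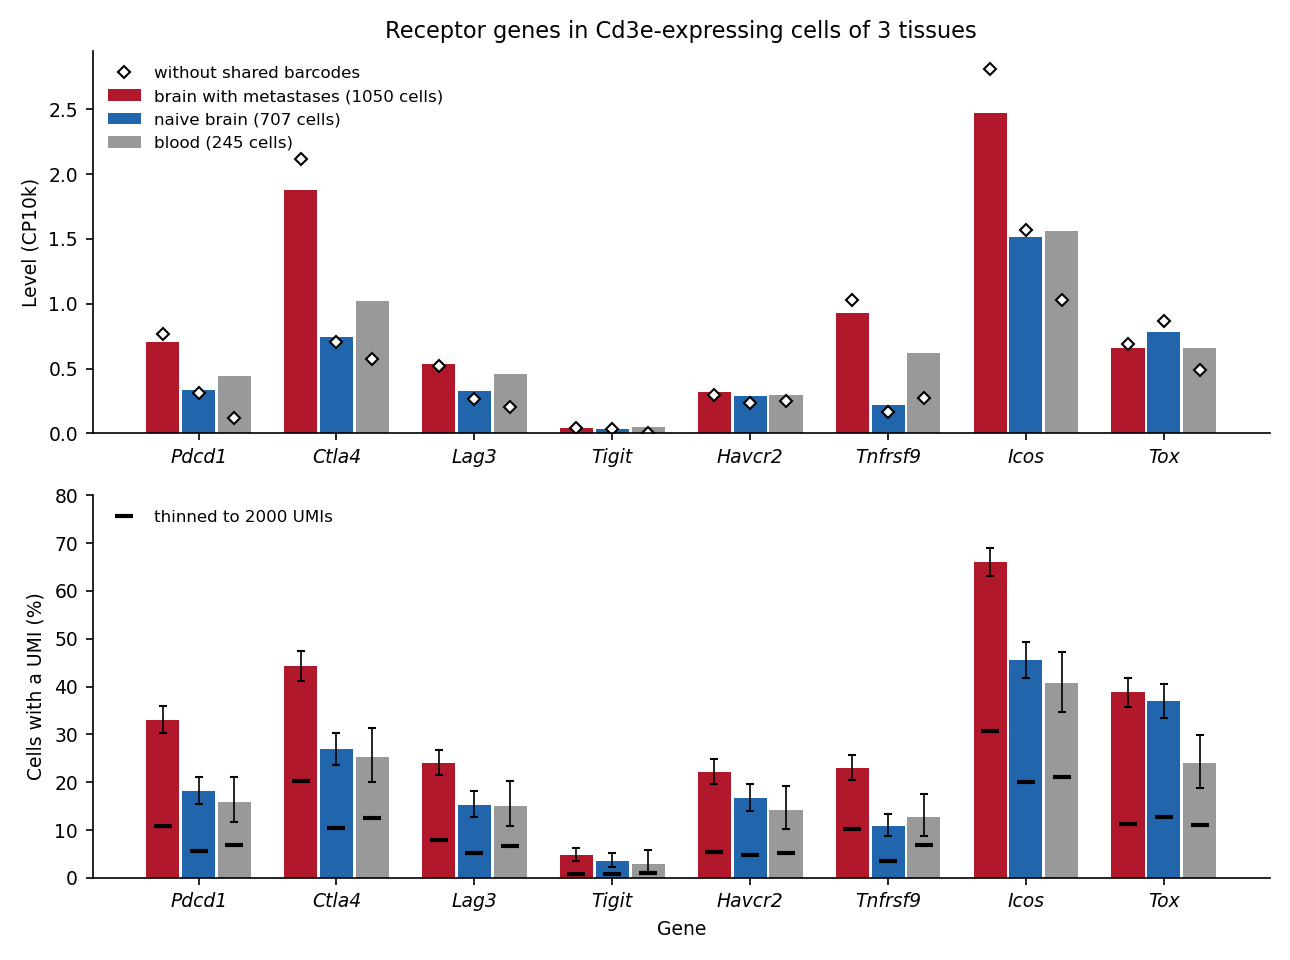
Top, level of each gene in CP10k in Cd3e-expressing cells of the brain with metastases, the naive brain and the blood (bars), with the level after leaving out barcodes shared between matrices (diamonds). Bottom, the share of those cells with a UMI, with exact 95% intervals, and the share after thinning to 2000 UMIs (dashes). The diamonds of the blood fall below its bars for Pdcd1, Ctla4, Lag3, Tnfrsf9 and Icos.

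Ctla4 stood at 1.88 CP10k in the brain with metastases, against 0.745 CP10k in the naive brain (0.715 in the sample labelled depleted and 0.907 in that labelled control), at a log2 ratio of 1.23. It was found in 44.3% of cells with metastases (41.3 to 47.4%) and 26.9% in the naive brain (23.6 to 30.3%), and after thinning in 20.3% with metastases and 10.5% in the naive brain. Tnfrsf9 stood at 0.926 CP10k in the brain with metastases, against 0.220 CP10k in the naive brain (0.177 in the sample labelled depleted and 0.459 in that labelled control), at a log2 ratio of 1.68. Its shares were 23.0% with metastases (20.5 to 25.7%) and 10.9% in the naive brain (8.69 to 13.4%), and after thinning 10.2% with metastases and 3.48% in the naive brain. For both genes the brain with metastases lay above each naive sample. Against the sample labelled control alone, however, neither was past 2 fold, with log2 ratios of 0.97 for Ctla4 and 0.88 for Tnfrsf9. That sample had 106 Cd3e-expressing cells and the sample labelled depleted had 601.

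Pdcd1 was at 0.705 CP10k in the brain with metastases, against 0.329 and 0.361 CP10k in the naive brain samples labelled depleted and control, a log2 ratio of 0.89 over both. Its shares did not overlap in their intervals, 33.0% with metastases (30.2 to 36.0%) and 18.1% in the naive brain (15.3 to 21.1%), and were 10.8% with metastases and 5.61% in the naive brain after thinning. Without shared barcodes the Pdcd1 ratio was 1.07. Icos was at 2.47 CP10k, against 1.38 and 2.24 CP10k in the samples labelled depleted and control, a log2 ratio of 0.67 over both. The Icos ratio was 0.80 against the sample labelled depleted alone and 0.13 against the sample labelled control alone. Lag3 was at 0.539 CP10k with metastases, against 0.340 CP10k labelled depleted and 0.244 CP10k labelled control in the naive brain (log2 ratio 0.59 over both). Tox was at 0.658 CP10k with metastases, against 0.816 CP10k labelled depleted and 0.585 CP10k labelled control (log2 ratio -0.22 over both). Tox alone of the 6 measured genes was not higher in the brain with metastases.

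Markers of other cells were summed in the same sets, and their part in these ratios was not tested. The regulatory T genes Foxp3, Il2ra and Ikzf2 summed to 2.20 CP10k in the brain with metastases and 1.38 CP10k in the naive brain, and the 10 T cell markers to 36.9 CP10k with metastases and 41.6 CP10k in the naive brain. The 10 microglia markers summed to 20.7 CP10k with metastases and 28.4 CP10k in the naive brain, and the 10 monocyte or macrophage markers to 37.1 CP10k with metastases and 38.3 CP10k in the naive brain. With Cd3e-expressing cells restricted to those with fewer than 2 macrophage genes, the ratios were 1.72 for Ctla4, 2.26 for Tnfrsf9, 1.28 for Pdcd1 and 1.16 for Lag3, and 4 genes were past 2 fold higher. The share of all measured genes past 2 fold is not at hand for these restricted cells.

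The comparison was repeated within Cd3e-expressing cells of 1 kind. Among cells with Cd8a and no Cd4 there were 484 in the tumour-bearing brain and 374 in the naive brain. In these, Pdcd1 was at 0.887 CP10k with metastases and 0.405 CP10k in the naive brain (log2 ratio 0.97), and Ctla4 at 1.36 CP10k with metastases and 0.677 CP10k in the naive brain (0.91). Lag3 was at 0.743 CP10k with metastases and 0.405 CP10k in the naive brain (0.74), and Tnfrsf9 at 0.720 CP10k with metastases and 0.160 CP10k in the naive brain (1.66). Cells with Cd4 but neither Cd8a nor Foxp3 numbered 123 with metastases and 68 in the naive brain. There Tnfrsf9 was at 0.612 CP10k with metastases and 0.203 CP10k in the naive brain (1.23), and Pdcd1 at 0.806 CP10k with metastases and 0.469 CP10k in the naive brain (0.67). Ctla4 was near level in these cells, at 2.10 CP10k with metastases and 1.80 CP10k in the naive brain (0.21). Foxp3-expressing cells numbered 88 with metastases and 22 in the naive brain. Their Ctla4 was at 9.20 CP10k with metastases and 5.02 CP10k in the naive brain (0.86), their Tnfrsf9 at 4.92 CP10k with metastases and 1.84 CP10k in the naive brain (1.37), and their Pdcd1 at 0.989 CP10k with metastases and 0.966 CP10k in the naive brain (0.03). Of these genes Tnfrsf9 was past 2 fold in all 3 kinds. The splits were chosen after the data had been seen, and without shared barcodes 69 Foxp3-expressing cells with metastases and 7 in the naive brain remained, with ratios of 1.37 for Pdcd1 and 1.73 for Ctla4.

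Pdcd1, Ctla4 and Tnfrsf9 were the inhibitory and costimulatory members with the highest ratios between the 2 brains, and their promoters are shown for that reason. The sequences are those of RefSeq on GRCm38.p6, the build of mm10, from 250 bases before to 50 after the start of the gene, given 5′ to 3′ on the gene's strand. Capitals mark matches, on either strand, of GGAAA (the core bound by NFAT, the factor of calcium signalling below the T cell receptor), TGANTCA (AP-1) and TAAACA (a forkhead core). They lie at chr1:94052504-94052803, minus strand, for Pdcd1, at chr1:60908775-60909074, plus strand, for Ctla4, and at chr4:150919905-150920204, plus strand, for Tnfrsf9.
Pdcd1: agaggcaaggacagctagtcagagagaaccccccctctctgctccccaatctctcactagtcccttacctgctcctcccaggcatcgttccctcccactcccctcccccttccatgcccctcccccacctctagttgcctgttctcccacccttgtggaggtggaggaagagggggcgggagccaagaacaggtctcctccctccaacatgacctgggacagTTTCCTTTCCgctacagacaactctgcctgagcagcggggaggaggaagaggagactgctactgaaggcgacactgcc
Ctla4: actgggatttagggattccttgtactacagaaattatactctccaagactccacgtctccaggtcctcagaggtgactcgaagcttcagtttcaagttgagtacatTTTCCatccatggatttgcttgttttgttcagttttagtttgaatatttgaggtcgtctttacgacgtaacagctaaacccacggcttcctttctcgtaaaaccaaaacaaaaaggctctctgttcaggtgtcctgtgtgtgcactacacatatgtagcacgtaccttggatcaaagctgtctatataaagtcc
Tnfrsf9: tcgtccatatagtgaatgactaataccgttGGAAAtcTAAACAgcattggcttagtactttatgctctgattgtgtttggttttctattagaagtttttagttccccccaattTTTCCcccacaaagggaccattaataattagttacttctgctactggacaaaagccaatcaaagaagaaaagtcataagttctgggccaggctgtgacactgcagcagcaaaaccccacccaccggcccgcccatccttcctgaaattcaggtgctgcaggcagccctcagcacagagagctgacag
With positions counted from the start of the gene, Pdcd1 had 2 matches of GGAAA at -28 and -23, Ctla4 had 1 at -144, and Tnfrsf9 had 2 of GGAAA at -220 and -137 and 1 of TAAACA at -213, while TGANTCA matched in none of these 3 windows. A second start of Tnfrsf9 in the same tables, whose window is not printed, had 3 matches of GGAAA, at -180, -163 and -38, and 1 of TGANTCA, at -15. GGAAA was found in 61.3% of 32851 promoters of that length, TGANTCA in 7.81% and TAAACA in 13.4%, so a GGAAA match is common to most promoters. The tables held windows for 5 of the 8 genes. By the RefSeq gene positions Pdcd1 spans chr1:94038305-94052553, Ctla4 chr1:60909025-60915832, Icos chr1:60960773-61000322, Lag3 chr6:124904359-124912434, Tigit chr16:43626137-43665125, Havcr2 chr11:46454931-46481255, Tnfrsf9 chr4:150920155-150946104 and Tox chr4:6686353-6991557.

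Against Cd3e-expressing cells of the blood, 0 of 6 measured genes were past 2 fold, where 0.192% of the 3128 measured genes were past 2 fold higher and 2.75% lower. The 6 had a median log2 ratio of 0.54, against 0.02 over all measured genes. Pdcd1 and Lag3 were measured through the brain with metastases alone, which leans that median towards genes higher there. Ctla4 stood at 1.88 CP10k in the brain with metastases, against 1.32 and 0.701 CP10k in the blood samples labelled depleted and control, Icos at 2.47, against 1.51 and 1.63 CP10k, and Pdcd1 at 0.705, against 0.548 and 0.328 CP10k. Tnfrsf9, at 0.926 CP10k in the brain with metastases, lay between the blood samples, with 0.959 in the one labelled depleted and 0.254 in the one labelled control.

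The blood result turned on the shared barcodes. Without them, 110 Cd3e-expressing blood cells remained, and their Pdcd1 was 0.118 CP10k in place of 0.443, their Ctla4 0.575 in place of 1.02, their Lag3 0.203 in place of 0.457, their Tnfrsf9 0.270 in place of 0.621 and their Icos 1.03 in place of 1.56. With the shared barcodes left out on both sides, 5 genes were past 2 fold higher in the brain with metastases, at log2 ratios of 1.99 for Pdcd1, 1.71 for Ctla4, 1.61 for Tnfrsf9, 1.36 for Icos and 1.04 for Lag3. The share of all measured genes past 2 fold is not at hand for this smaller set, so that count has no background beside it. Tox was within 2 fold both ways, at 0.00 with the shared barcodes and 0.43 without. Of the blood's Cd3e-expressing cells 62.4% lay in its T cell cluster and 20.8% in its microglia-like cluster. They carried 207 CP10k of neutrophil markers, against 30.6 CP10k in the brain with metastases. The part of these differences in the ratios was not tested.

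Other genes of the pathway showed a mixed picture. Against the naive brain, Tnfrsf4 (OX40), the costimulatory receptor related to 4-1BB, was the one of 5 measured costimulatory genes past 2 fold, at 1.60 CP10k in the brain with metastases, against 0.498 CP10k in the naive brain (log2 ratio 1.51). Gzmb, the cytotoxic protease granzyme B, was the one of 4 measured effector genes, at 4.99 CP10k in the brain with metastases, against 2.03 CP10k in the naive brain (1.26). None of 7 measured transcription factors, 5 ligands or 2 further inhibitory genes was past 2 fold. Against the blood, Slamf6 was lower, at 0.420 CP10k in the brain with metastases, against 1.26 CP10k in the blood (-1.39), as was the factor Lef1, at 0.474 CP10k in the brain with metastases, against 1.34 CP10k in the blood (-1.32). Tcf7 was within 2 fold at -0.95.

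Within the Cd3e-expressing cells of the brain with metastases, the 88 cells with a UMI of Foxp3, the lineage factor of regulatory T cells, stood apart from the other 962. Ctla4 was at 9.20 CP10k in cells with Foxp3 and 1.19 CP10k in cells without, a log2 ratio of 2.85. It was found in 96.6% of cells with Foxp3 (90.4 to 99.3%) and 39.5% of cells without (36.4 to 42.7%), and after thinning in 69.1% with Foxp3 and 15.8% without. Nearly every cell with Foxp3 thus held Ctla4. Tnfrsf9 was at 4.92 CP10k in cells with Foxp3 and 0.550 CP10k in cells without (2.95). It was found in 81.8% of cells with Foxp3 (72.2 to 89.2%) and 17.7% of cells without (15.3 to 20.2%), and after thinning in 46.3% with Foxp3 and 6.95% without. Icos was at 5.48 CP10k in cells with Foxp3 and 2.19 CP10k in cells without (1.28), and was found in 97.7% with Foxp3 and 63.2% without. So 3 of the 7 measured genes were past 2 fold higher and 0 lower, where 4.99% of the 3148 measured genes were past 2 fold higher and 1.46% lower. The median log2 ratio of the 7 was 0.83, against 0.14 over all measured genes. The 4 erythroid markers summed to 30.5 CP10k with Foxp3 and 7.22 CP10k without, the 8 neutrophil markers to 11.6 CP10k with Foxp3 and 32.4 CP10k without, and the 10 T cell markers to 48.6 CP10k with Foxp3 and 35.8 CP10k without, and their part in these ratios was not tested.

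The other receptors differed less between cells with and without Foxp3. Havcr2 was at 0.598 CP10k with Foxp3 and 0.293 CP10k without (0.83). Lag3 was at 0.939 CP10k with Foxp3 and 0.501 CP10k without (0.79), but among cells with fewer than 2 macrophage genes its log2 ratio was -0.75. Tox was at 0.972 CP10k with Foxp3 and 0.629 CP10k without (0.56), and Pdcd1 at 0.989 CP10k with Foxp3 and 0.678 CP10k without (0.49). These 4 were within 2 fold. The picture differed against the 123 cells with Cd4 but neither Cd8a nor Foxp3. There Lag3 was at 0.219 CP10k (log2 ratio 1.70) and Havcr2 at 0.175 CP10k (1.34), so both were past 2 fold higher with Foxp3. Icos, at 4.19 CP10k in those Cd4 cells (0.38), was within 2 fold. Ctla4 and Tnfrsf9 stayed past 2 fold, at 2.08 and 2.82, and Tox and Pdcd1 stayed within, at 0.93 and 0.27. Tigit, not measured, was found in 18.2% of cells with Foxp3 (10.8 to 27.8%) and 3.53% of cells without (2.46 to 4.90%).

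Genes known to go with Foxp3 were higher in the same cells. Il2ra, the high-affinity interleukin 2 receptor chain, was at 3.47 CP10k with Foxp3 and 0.214 CP10k without (3.50), and the factor Ikzf2 at 7.15 CP10k with Foxp3 and 0.908 CP10k without (2.85). Of 5 measured costimulatory genes 2 were past 2 fold higher, Tnfrsf4 at 12.7 CP10k with Foxp3 and 0.559 CP10k without (4.28), and Tnfrsf18 (GITR) at 7.74 CP10k with Foxp3 and 1.24 CP10k without (2.55). Of 8 transcription factors 2 were past 2 fold higher and 1 lower: Prdm1 was at 0.657 CP10k with Foxp3 and 0.226 CP10k without (1.21), Batf at 1.02 CP10k with Foxp3 and 0.429 CP10k without (1.09), and Tcf7, the factor of naive and stem-like T cells, at 0.249 CP10k with Foxp3 and 0.862 CP10k without (-1.46). Of 3 further inhibitory genes, Klrg1 was higher, at 0.848 CP10k with Foxp3 and 0.0344 CP10k without (2.82), and Cd160 lower, at 0.0748 CP10k with Foxp3 and 0.590 CP10k without (-1.98). Of 6 ligands, Tnfsf9, the ligand of 4-1BB, was higher, at 1.01 CP10k with Foxp3 and 0.386 CP10k without (1.20), and of 4 effector genes Gzmb, at 10.4 CP10k with Foxp3 and 4.48 CP10k without (1.20).

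**Figure D3:**
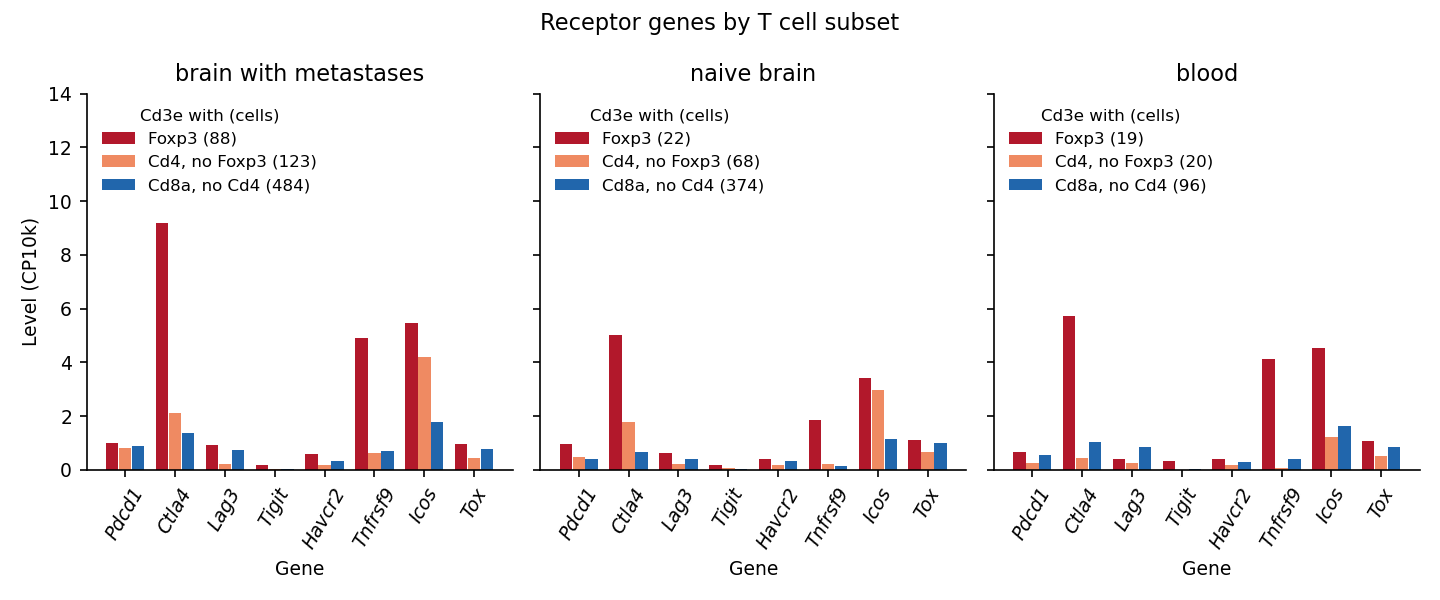
Level in CP10k of each gene in Cd3e-expressing cells with Foxp3, with Cd4 but neither Cd8a nor Foxp3, and with Cd8a but no Cd4, in the brain with metastases, the naive brain and the blood (cell numbers in brackets, no replicate). In the brain with metastases Ctla4 and Tnfrsf9 are highest in cells with Foxp3, at 9.20 and 4.92 CP10k. Barcodes shared between matrices are included, and without them 7 cells with Foxp3 remain in each of the other tissues.

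Cells with Cd4 and no Cd8a (172) were set against cells with Cd8a and no Cd4 (484). Ctla4 was at 4.43 CP10k in Cd4 cells and 1.36 CP10k in Cd8a cells (log2 ratio 1.63). Tnfrsf9 was at 2.08 CP10k in Cd4 cells and 0.720 CP10k in Cd8a cells (1.41), and Icos at 4.70 CP10k in Cd4 cells and 1.80 CP10k in Cd8a cells (1.34). So 3 of 6 measured genes were past 2 fold higher in Cd4 cells and 0 lower, where 1.78% of the 2928 measured genes were past 2 fold higher and 1.37% lower. Lag3 was the lower, at 0.448 CP10k in Cd4 cells and 0.743 CP10k in Cd8a cells (-0.62), and Pdcd1 was near level, at 0.856 CP10k in Cd4 cells and 0.887 CP10k in Cd8a cells (-0.05). The 4 erythroid markers summed to 16.2 CP10k in Cd4 cells and 5.10 CP10k in Cd8a cells, the 8 neutrophil markers to 10.4 CP10k in Cd4 cells and 27.4 CP10k in Cd8a cells, and the 10 NK markers to 7.03 CP10k in Cd4 cells and 28.0 CP10k in Cd8a cells, and their part was not tested.

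The Tnfrsf9 and Ctla4 ratios were smaller with the Foxp3-expressing cells left out of the Cd4 side alone. The 484 Cd8a cells were kept whole, with any that had Foxp3. Among the 123 Cd4 cells without Foxp3, Tnfrsf9 was at 0.612 CP10k, against 0.720 CP10k in Cd8a cells (-0.20), and Ctla4 at 2.10 CP10k, against 1.36 CP10k in Cd8a cells (0.59). Icos stayed past 2 fold, at 4.19 CP10k in these Cd4 cells and 1.80 CP10k in Cd8a cells (1.18). Lag3 was then past 2 fold lower, at 0.219 CP10k in these Cd4 cells and 0.743 CP10k in Cd8a cells (-1.40). Among the other genes, Tnfrsf4 had the highest ratio of the costimulatory list, at 6.18 CP10k in all Cd4 cells and 0.294 CP10k in Cd8a cells. Of 4 measured effector genes 2 were past 2 fold lower in Cd4 cells, Prf1 (perforin) at a log2 ratio of -2.27 and Ifng at -1.27. Of 8 transcription factors 2 were, Eomes at -1.89 and Nr4a2 at -1.25, and of 2 further inhibitory genes Cd160 was, at -1.86, and in these 3 lists none was past 2 fold higher. In the naive brain Icos was at 2.96 CP10k in Cd4 cells without Foxp3 and 1.15 CP10k in Cd8a cells (1.29), and Ctla4 at 1.80 CP10k in Cd4 cells without Foxp3 and 0.677 CP10k in Cd8a cells (1.29).

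The genes were also found together in the same cells. A Cd3e-expressing cell had a UMI of 2.56 of the 8 genes on average in the brain with metastases, against 1.74 for the naive brain and 1.51 for the blood, or 0.974, 0.630 and 0.710 after thinning. Cells with 4 or more of the 8 made up 26.9% (24.2 to 29.6%) in the brain with metastases, 12.2% (9.85 to 14.8%) for the naive brain and 11.8% (8.07 to 16.6%) for the blood. In cells with Foxp3 of the brain with metastases that share was 83.0% (73.4 to 90.1%), and in Cd8a cells 32.6% (28.5 to 37.0%). Among the 4883 cells without Cd3e it was 0.860%. Detection of any gene grows with the depth of a cell, and cells with 4 or more and cells with none had medians of 13596.5 and 12947 corrected UMIs. Corrected totals are already evened for depth, lying between 9243 and 19073 in every cell of the brain with metastases. These medians and the thinned shares therefore cannot show the part of raw depth, which was not at hand for that tissue. In the blood's Cd3e-expressing cells the medians were 9584 raw and 5846 corrected UMIs.

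Pdcd1 was taken as the first gene of each pair. Of the 1050 Cd3e-expressing cells of the brain with metastases, 347 had Pdcd1 and 703 had not. Lag3 was found in 42.1% of cells with Pdcd1 (36.8 to 47.5%) and 15.2% of cells without (12.6 to 18.1%), and after thinning in 18.7% with Pdcd1 and 6.69% without. Tnfrsf9 was found in 38.6% of cells with Pdcd1 (33.5 to 44.0%) and 15.4% of cells without (12.8 to 18.2%), and after thinning in 22.0% with Pdcd1 and 8.81% without. Ctla4 was found in 64.6% of cells with Pdcd1 (59.3 to 69.6%) and 34.3% of cells without (30.8 to 37.9%). Each of these receptors was thus found more often beside Pdcd1. Tox was found in 53.0% of cells with Pdcd1 and 31.7% without, Icos in 82.4% with Pdcd1 and 58.0% without, and Havcr2 in 32.0% with Pdcd1 and 17.4% without. Over all 56 ordered pairs of the 8 genes the share was higher in cells with the first gene in 56, with intervals apart in 50, and in 54 after thinning. Each pair is counted in both orders, which share 1 direction, so these are 28 pairs of genes.

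**Figure D4:**
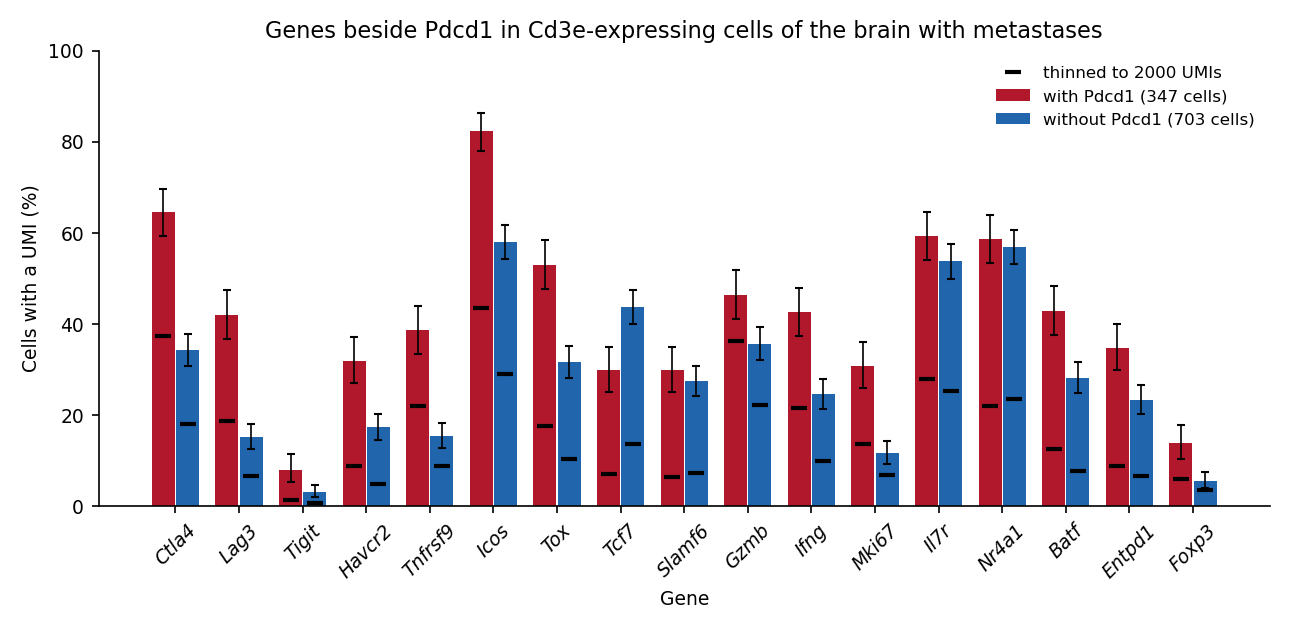
Share of Cd3e-expressing cells of the brain with metastases with a UMI of each gene, among cells with Pdcd1 and cells without it, with exact 95% intervals (bars) and after thinning to 2000 UMIs (dashes). Tcf7 is the gene with the lower share in cells with Pdcd1, 30.0% against 43.7%.

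Genes of other states differed beside Pdcd1 in several ways. Tcf7 was found in 30.0% of cells with Pdcd1 (25.2 to 35.1%) and 43.7% of cells without (40.0 to 47.4%), and after thinning in 7.21% with Pdcd1 and 13.6% without. Ifng, the gene of interferon gamma, was found in 42.7% of cells with Pdcd1 (37.4 to 48.0%) and 24.6% of cells without (21.5 to 28.0%). Mki67, a gene of dividing cells, was found in 30.8% of cells with Pdcd1 (26.0 to 36.0%) and 11.7% of cells without (9.39 to 14.3%). Tcf7 thus lay on the side of cells without Pdcd1, and Ifng and Mki67 on the side of cells with it. Gzmb was found in 46.4% of cells with Pdcd1 and 35.7% without, Il7r in 59.4% with Pdcd1 and 53.8% without, and Nr4a1 in 58.8% with Pdcd1 and 57.0% without. In Cd8a cells alone, 199 with Pdcd1 and 285 without, Lag3 was found in 50.8% with Pdcd1 and 19.6% without, and Tnfrsf9 in 35.2% with Pdcd1 and 9.12% without. Ifng was found there in 56.3% with Pdcd1 and 33.7% without, and Tcf7 in 27.1% with Pdcd1 and 48.1% without. The directions were those of all Cd3e-expressing cells.

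In the naive brain Pdcd1 was found beside the other receptors too, while the Tcf7 intervals overlapped. Of 128 cells with Pdcd1 and 579 without, Lag3 was found in 35.2% with Pdcd1 (26.9 to 44.1%) and 10.9% without (8.46 to 13.7%), and Tox in 60.9% with Pdcd1 and 31.6% without. Tcf7 was found in 44.5% with Pdcd1 (35.7 to 53.6%) and 39.9% without (35.9 to 44.0%). In the blood, of 39 cells with Pdcd1 and 206 without, Ctla4 was found in 61.5% with Pdcd1 and 18.4% without. Tcf7 was found there in 25.6% with Pdcd1 and 49.0% without, with overlapping intervals. Whether the Tcf7 difference itself differs between tissues was not tested. The number of ordered pairs higher with the first gene was 56 of 56 for the naive brain and 54 of 56 for the blood, and without shared barcodes 56 of 56 in the brain with metastases, 50 of 56 for the naive brain and 40 of 42 for the blood, where Tigit had no UMI and its pairs have no value. Intervals were apart in fewer pairs, 29 for the naive brain and 26 for the blood. After thinning 48 and 54 pairs were higher. Without shared barcodes intervals were apart in 52 pairs for the brain with metastases, 19 for the naive brain and 15 for the blood.

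The arms were compared within the naive brain and within the blood, as far as 1 sample each allows. In T cells of the naive brain Icos was lower in the sample labelled depleted, and the other measured genes were within 2 fold. Icos stood at 1.60 CP10k in the 440 cells of the sample labelled depleted, against 3.52 CP10k in the 59 cells of the sample labelled control (log2 ratio -1.09). It was found in 46.8% of cells labelled depleted (42.1 to 51.6%) and 69.5% of cells labelled control (56.1 to 80.8%), and after thinning in 21.4% labelled depleted and 38.6% labelled control. It was the 1 of 3 measured genes past 2 fold lower, with 0 higher, where 0.675% of the 2816 measured genes were past 2 fold lower and 0.462% higher. Ctla4 was at 0.844 CP10k labelled depleted and 0.678 CP10k labelled control (0.28), and Tox at 0.981 CP10k labelled depleted and 0.715 CP10k labelled control (0.41). With 0.5 CP10k added in place of 0.1 the Icos ratio was -0.94, no longer past 2 fold. The 10 microglia markers summed to 5.76 CP10k labelled depleted and 2.75 CP10k labelled control, and the 8 neutrophil markers to 5.37 CP10k labelled depleted and 2.77 CP10k labelled control, and their part in the Icos ratio was not tested.

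The Icos ratio differed between the gates, with few cells labelled control in each, and the kinds of T cells differed in share between these samples. Cd8a was found in 61.1% of T cells labelled depleted and 42.4% labelled control, Cd4 in 12.5% labelled depleted and 10.2% labelled control, and Foxp3 in 1.14% labelled depleted and 3.39% labelled control. Within the CD8+ gate, 140 cells labelled depleted and 14 labelled control, the Icos ratio was -0.08, and 6 of the 14 had shared barcodes. Within the CD4+ gate, 32 cells labelled depleted and 7 labelled control, it was -0.47. Over all Cd3e-expressing cells, 601 labelled depleted and 106 labelled control, it was -0.66. In the gate of CD3+ cells with neither CD4 nor CD8, Icos was at 1.23 CP10k and in 42.0% (30.2 to 54.5%) of 69 cells labelled depleted, against 7.64 CP10k and 13 of 13 cells (75.3 to 100%) labelled control. Without shared barcodes it was at 1.30 CP10k in 59 such cells labelled depleted, against 8.75 CP10k in 11 labelled control. That gate was singled out after its values were seen. Il7r, the interleukin 7 receptor of resting T cells, was also past 2 fold lower over the T cell cluster, at 1.61 CP10k labelled depleted and 3.43 CP10k labelled control (-1.05). So was Nr4a3, a gene induced by receptor signalling, at 0.182 CP10k labelled depleted and 0.623 CP10k labelled control (-1.36).

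**Figure D5:**
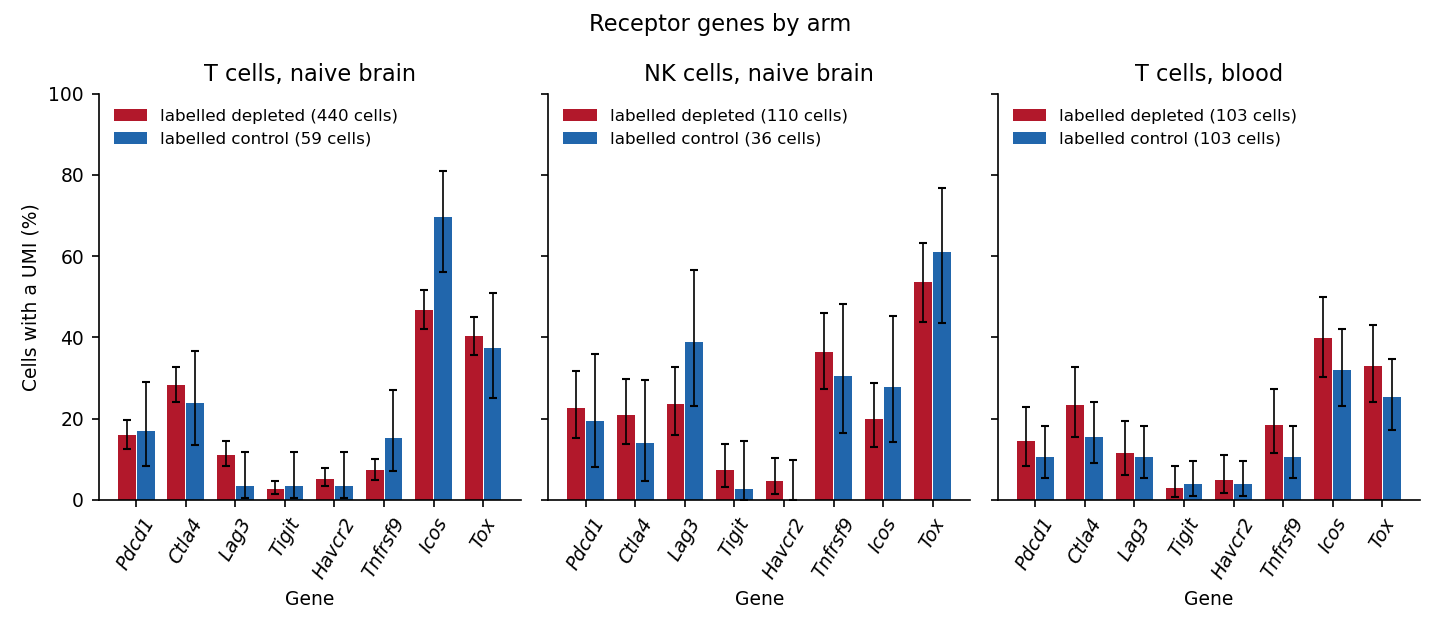
Share of cells with a UMI of each gene in T cells and NK cells of the naive brain and T cells of the blood, in the hashed samples labelled depleted and control (1 sample each, exact 95% intervals for counting error only). The intervals stand apart for Icos in T cells of the naive brain, at 46.8% and 69.5%.

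In NK cells of the naive brain, 110 labelled depleted and 36 labelled control, none of 5 measured genes was past 2 fold, where 1.45% of the 3103 measured genes were past 2 fold higher and 1.35% lower. Lag3 was at 0.403 CP10k labelled depleted and 0.671 CP10k labelled control (-0.62), and Icos at 0.493 CP10k labelled depleted and 0.671 CP10k labelled control (-0.38). Tnfrsf9 was at 0.785 CP10k labelled depleted and 0.976 CP10k labelled control (-0.28), and Pdcd1 at 0.533 CP10k labelled depleted and 0.488 CP10k labelled control (0.11). The intervals of the shares overlapped for all 8 genes. Among the pathway genes, Klrg1 was past 2 fold lower, at 0.0805 CP10k labelled depleted and 0.610 CP10k labelled control (-1.98), as were Nr4a1 and Tnf, at log2 ratios of -1.07 and -1.04.

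In T cells of the blood, 103 in each arm, Tnfrsf9 was the 1 of 4 measured genes past 2 fold higher and none was lower, where 1.11% of the 3248 measured genes were past 2 fold higher and 0.216% lower. Tnfrsf9 stood at 1.11 CP10k in the sample labelled depleted, against 0.313 CP10k in the sample labelled control (1.55), from 64 UMIs labelled depleted and 17 labelled control. It was measured through the sample labelled depleted alone. With 0.5 CP10k added the ratio was 0.99. It was found in 18.4% of cells labelled depleted (11.5 to 27.3%) and 10.7% of cells labelled control (5.45 to 18.3%). Without shared barcodes it was at 0.469 CP10k labelled depleted and 0.0756 CP10k labelled control, below the measured level. Ctla4 was at 1.25 CP10k labelled depleted and 0.645 CP10k labelled control (0.86), and Icos at 1.58 CP10k labelled depleted and 1.62 CP10k labelled control (-0.03). Tnfrsf4, at 1.15 CP10k labelled depleted and 0.368 CP10k labelled control (1.41), was past 2 fold higher as well, and Foxp3 was found in 7.77% of T cells labelled depleted and 3.88% labelled control. The part of the Foxp3-expressing cells in the Tnfrsf9 ratio was not tested.

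The genes whose levels ran most like each member over the 47 clusters of the 3 matrices were found by Pearson correlation of log2(CP10k + 0.1) among 8336 genes. The clusters share 1 pool and in part the same droplets, so the values are descriptions. Icos ran with genes that include Lat (0.961), Bcl11b, Cd28 and Cd247, Ctla4 with Lat (0.921), Icos (0.919), Cd247, Tnfrsf18 and Cd28, and Tox with Cxcr6 (0.974), Skap1, Lck, Cd96 and Zap70. Tigit lay below the 0.1 CP10k added in all 47 clusters, so its correlations rest on values at the floor and are not given. Tnfrsf9 ran less closely with Gstp3 (0.772), Gzmb, Gzma, Tbx21 and Klrc1. Pdcd1 ran with Rasal3 (0.872), Tnfsf8, Klk8, Cst7 and Ctla4. Havcr2 ran with Cd86 (0.924), Cd68, P2ry6, Aif1 and Tnf, and Lag3 with Gna15 (0.888), Ldlrad4, Slc9a9, Tlr12 and Fam46c.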

How the data were processed

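RNA of the droplets was read with the 10x 3' assay and processed against mm10 with Cell Ranger 3.1 and Seurat 3.1.1, per the submitters' processing notes. Values deposited in the 3 matrices are on a natural log scale, ln(1 + count corrected for depth): every one turned back to a whole number of corrected UMIs (tolerance 1e-06). The design had foreseen plain UMI counts. With 1 hashed sample per arm and tissue no test was run. Corrected UMIs were summed per class and scaled to 10000. Classes were the authors' deposited clusters and gates (naive brain, blood) or Leiden clusters (brain with metastases; 2000 variable genes, 30 principal components, 20 neighbours, resolution 1). Thinned shares are hypergeometric expectations. No doublet caller was run. Named genes were the 8 members, those of 58 genes in 7 pathway lists past 2 fold or closely related to a member, and the 5 genes most like each member, leaving out mitochondrial, ribosomal, receptor and unnamed genes. Leading genes of clusters and the genes shown beside Pdcd1 were named as well. The members and lists were chosen with earlier results of these data known. Alternatives were other Cd3e rules, gates, a pseudocount of 0.5 CP10k, per-cell means, single arms, cells with few macrophage genes and cells without shared barcodes. Summing, ratios and thinning were tested on simulated data. Tools were Python 3.11.15, numpy 2.4.6, scipy 1.17.1, pandas 2.3.3, scanpy 1.11.5, igraph 0.11.9 and scikit-learn 1.9.0. Some genes that the rule names are not reported here.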

Additional observations from a re-analysis of the deposited data

Results flagged for a closer look

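Tox ran in opposite directions in the T cells and NK cells of the naive brain. Its log2 ratio of the sample labelled depleted over the sample labelled control was 0.41 in T cells and -0.15 in NK cells. Each side is 1 sample, both ratios are within 2 fold, and the difference between them was not tested.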

How the results depend on the processing

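Of 103 alternative values of the log2 ratios past 2 fold, 0 took the other sign, and of 180 of the ratios within 2 fold, 15 did. The alternatives include the pseudocount of 0.5 CP10k, which cannot change a sign, so these counts are in part fixed in advance. The counts of genes past 2 fold moved as follows, and shares over all measured genes are at hand for the reported sets alone. With a pseudocount of 0.5 CP10k they were 0 lower in naive T cells between the arms (1 as reported), 0 higher in blood T cells (1) and 0 higher in the brain with metastases over the naive brain (2). With the CD4+ gate they were 0 in naive T cells and 3 in blood T cells, and with Cd3e-expressing cells 0 in naive T cells. Without shared barcodes they were 0 in blood T cells between the arms and 5 in the brain with metastases over the blood (0 as reported). With fewer than 2 macrophage genes they were 4 over the naive brain, 3 over the blood and 1 lower in Cd4 over Cd8a cells (Lag3, at a log2 ratio of -1.05). Against the arm labelled control alone they were 0 over the naive brain and 2 over the blood. The causes were not tested. No paired analysis was possible because each arm has 1 hashed sample per tissue. Shares follow depth, and thinning lowered them throughout. Classes of fewer than 40 cells (the naive CD4+ gate, control NK cells) set wide intervals.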

Other observations

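Within the Cd3e-expressing cells of the brain with metastases, the 674 in the T cell-like clusters and the 376 elsewhere differed in most of these genes. Of those elsewhere, 132 lay in unnamed cluster 21 and 81 in the Il17a-led cluster 10, which also held T cell genes. The split is thus not one of T cells against other cells. Ctla4 was at 2.56 CP10k in the T cell-like clusters and 0.650 CP10k elsewhere (log2 ratio 1.83), Pdcd1 at 0.925 and 0.308 CP10k (1.33), Tnfrsf9 at 1.20 and 0.430 (1.29) and Lag3 at 0.686 and 0.274 (1.07). Icos differed less, at 2.82 and 1.85 CP10k (0.58). The clusters were made from the same RNA, so these values are a description.

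Outside the metastases cells with Foxp3 were few, and only 7 of 22 in the naive brain and 7 of 19 in the blood had barcodes found in no other matrix. In the blood Ctla4 was at 5.72 CP10k in 19 cells with Foxp3 and 0.434 CP10k in 20 Cd4 cells without (log2 ratio 3.45), and Tnfrsf9 at 4.12 and 0.0867 CP10k (4.50). In the naive brain Ctla4 was at 5.02 CP10k in 22 cells with Foxp3 and 1.80 CP10k in 68 Cd4 cells without (1.43), and Tnfrsf9 at 1.84 CP10k with Foxp3 and 0.203 CP10k without (2.68). Without shared barcodes Ctla4 was at 2.90 CP10k in 7 cells with Foxp3 and 1.97 CP10k in 55 Cd4 cells without in the naive brain (0.54, within 2 fold), and Tnfrsf9 at 1.37 CP10k with Foxp3 and 0.138 CP10k without (2.63). The blood kept 7 cells with Foxp3, with Ctla4 at 4.50 and Tnfrsf9 at 1.35 CP10k, and 9 Cd4 cells without, with no UMI of either gene, so no ratio is given.

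A cluster of the brain with metastases led by Ccr7 and Ccl22, which stayed unnamed, had Lag3 at 0.912 CP10k and in 46.9% of its 113 cells, and Havcr2 at 0.912 CP10k and in 66.4%.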
